A study of Mus musculus with 23 samples.

Results

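Eosinophil granule and receptor genes were followed in RNA sequencing of marrow-depleted mouse bone, as 8 named genes: Prg2, Prg3, Epx, Ear1, Ear2, Ear6, Siglecf and Il5ra. They were chosen by name, with their values in these same mice already known, from 17644 genes listed by symbol and 67228 gene entries counted. All 8 were among the 14364 genes that had enough counts to be tested. Because the genes were selected on differences between these groups, their levels and fold changes are given as a description and no test of them is read. How many passed a threshold is printed beside the share or number of all genes that did, and is not read. Tests are read for other genes.

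The 23 female mice were C57BL6/N, 11 weeks old, and carried either intact Sarm1 (WT) or a Sarm1 knockout (KO). SARM1 is an enzyme that breaks down NAD and drives axon degeneration, and the knockout was global rather than limited to a cell type. Type 1 diabetes (T1D) was induced with streptozotocin, a toxin of insulin-producing cells, injected i.p. at 100 mg/kg after an overnight fast on at least 2 days, and bone was taken after 3 weeks of diabetes. Controls received saline. There were 5 mice in WT Control and 6 in each of the groups WT T1D, KO Control and KO T1D. The study as a whole used littermates of heterozygous pairs supplemented by purchased WT mice. Whether any of these 23 mice were purchased is not given in the labels. The RNA came from the tibia and femur of a hind limb after the epiphyses were cut off and the marrow was spun out, and whether eosinophil RNA came from marrow left in the shaft or from elsewhere in the bone was not tested.

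Eosinophils are granulocytes that mature in bone marrow under interleukin-5 and leave it loaded with toxic granule proteins. Messages for the granule proteins are made mostly by maturing marrow precursors, whereas the surface receptor Siglec-F marks later cells. In bulk RNA, fewer cells of a type and less RNA per cell cannot be told apart.

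Library totals ran from 16938101 to 20135592 counts. Sarm1 itself was close to the detection limit, with 5 to 32 counts in every library, and did not separate the genotypes. Its level was 0.85 to 1.76 CPM, counts scaled to the library's normalized total, in WT Control, 0.34 to 1.21 in WT T1D, 0.27 to 1.57 in KO Control and 0.81 to 1.46 in KO T1D. KO against WT gave log2 fold changes of -0.55 ± 0.38 (SE) in Control and 0.78 ± 0.37 in T1D, with adjusted p = 0.999 and 0.281 in edgeR's quasi-likelihood test. Where the deleted part of Sarm1 lies relative to the counted reads is not known here, so these values do not check the labels, and genotypes below are those of the labels. By quantitative PCR, the study reported that the low Sarm1 signal of bone was significantly lower in KO than in WT. WT T1D mice A3905 and A3906 stood apart: 13 bone cell markers summed to 8417 and 7163 CPM in them and to 54106 to 119735 CPM in the other 21 mice. The members' fold changes that rest on WT T1D are given with and without these mice.

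Of the 8 genes, 3 encode secreted ribonucleases of the Ear family, which mice carry as closely related copies on chromosome 14, so how far reads can tell them apart comes before their levels. In GRCm38.p6, the build the counts used, Ear1 lies at chr14:43818765-43819639, Ear2 at chr14:44102654-44103531 and Ear6 at chr14:51853768-51854643. The reading frames are 468, 471 and 468 bases long. Ear1 and Ear2 are 95.1% identical there, and Ear6 is 87.4% identical to Ear1 and 87.7% identical to Ear2. Across the 3 frames, 69 of 471 aligned positions are not the same. The stretch of 90 bases shown is the one with most such positions among the 3 copies. It has 19 of them, in capitals, and most set Ear6 apart from Ear1 and Ear2 rather than those 2 from each other:
Ear1: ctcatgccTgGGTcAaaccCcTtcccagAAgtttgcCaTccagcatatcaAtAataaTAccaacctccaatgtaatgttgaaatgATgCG
Ear2: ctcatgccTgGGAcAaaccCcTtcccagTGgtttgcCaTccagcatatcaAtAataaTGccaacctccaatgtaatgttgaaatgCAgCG
Ear6: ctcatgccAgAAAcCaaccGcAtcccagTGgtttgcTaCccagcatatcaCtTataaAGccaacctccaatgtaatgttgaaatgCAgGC
These are bases 69 to 158 of each reading frame in the GENCODE vM21 transcripts. Windows of 100 bases, the length of a read, that recur exactly in another transcript of the family made up 13.9% of Ear2 (86 of 620), 2.44% of Ear1 (15 of 614) and 0 of 614 in Ear6. All the shared windows of Ear1 and Ear2 matched Ear10, which is not in the gene table used here. Ear1 and Ear2 values are thus uncertain where reads of Ear10 may have been assigned to them, and those of Ear6 less so.

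The promoters of the Ear members are also alike. The 120 bases before the start of each gene are shown because the levels of these genes varied together across mice, with GATA on either strand (read as GATA or TATC) in capitals; GATA factors direct eosinophil development:
Ear1: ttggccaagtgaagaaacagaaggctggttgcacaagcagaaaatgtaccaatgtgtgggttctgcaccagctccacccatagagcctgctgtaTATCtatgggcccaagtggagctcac
Ear2: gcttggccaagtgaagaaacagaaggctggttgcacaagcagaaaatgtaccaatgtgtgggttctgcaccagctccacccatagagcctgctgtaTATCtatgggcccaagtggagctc
Ear6: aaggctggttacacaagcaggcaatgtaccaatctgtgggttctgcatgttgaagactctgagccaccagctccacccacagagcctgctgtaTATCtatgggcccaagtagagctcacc
Epx: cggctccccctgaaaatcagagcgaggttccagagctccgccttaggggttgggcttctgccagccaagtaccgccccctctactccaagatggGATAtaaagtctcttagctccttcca
They were read from RefSeq (GRCm38.p6) at chr14:43819640-43819759 on the minus strand for Ear1, chr14:44102534-44102653 on the plus strand for Ear2, chr14:51853648-51853767 on the plus strand for Ear6 and chr11:87875537-87875656 on the minus strand for Epx. Ear1 and Ear2 are 96.7% identical over these bases and Ear1 and Ear6 67.1%, against 45.7% for Ear1 and Epx. In the whole RefSeq window of 300 bases, GATA occurred in 7 of the 7 members listed there, once or more, but 57.9% of all 32851 promoters of that length hold it too. Siglecf had 3 matches, and 12.6% of all promoters have as many.

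On the per-length scale (TPM, which divides counts by transcript length) the granule genes stood above the receptors. Prg2, which encodes major basic protein, the core of the granule, had a median of 1836 TPM over all mice. Ear1 followed at 647, Ear2 at 467, Ear6 at 391 and Epx, the eosinophil peroxidase that makes hypohalous acids, at 227 TPM. Prg3, a homologue of major basic protein, reached 61.5 TPM, Siglecf 8.02 and Il5ra, the interleukin-5 receptor alpha chain, 1.14. This order held in nearly every animal: Prg2 was above Ear1, Ear6 above Epx, Epx above Prg3, Prg3 above Siglecf and Siglecf above Il5ra in 23 of 23 mice. Ear1 exceeded Ear2 in 22 of 23, the exception being A3905, and Ear2 exceeded Ear6 in 21 of 23, the exceptions being KO T1D mice A3675 and A3676. Counts ranged from 10765 to 42747 for Prg2 but only from 22 to 109 for Il5ra, so Il5ra carries far more counting error. Together the 8 genes took 0.117% to 0.513% of all counts in a library.

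**Figure D1:**
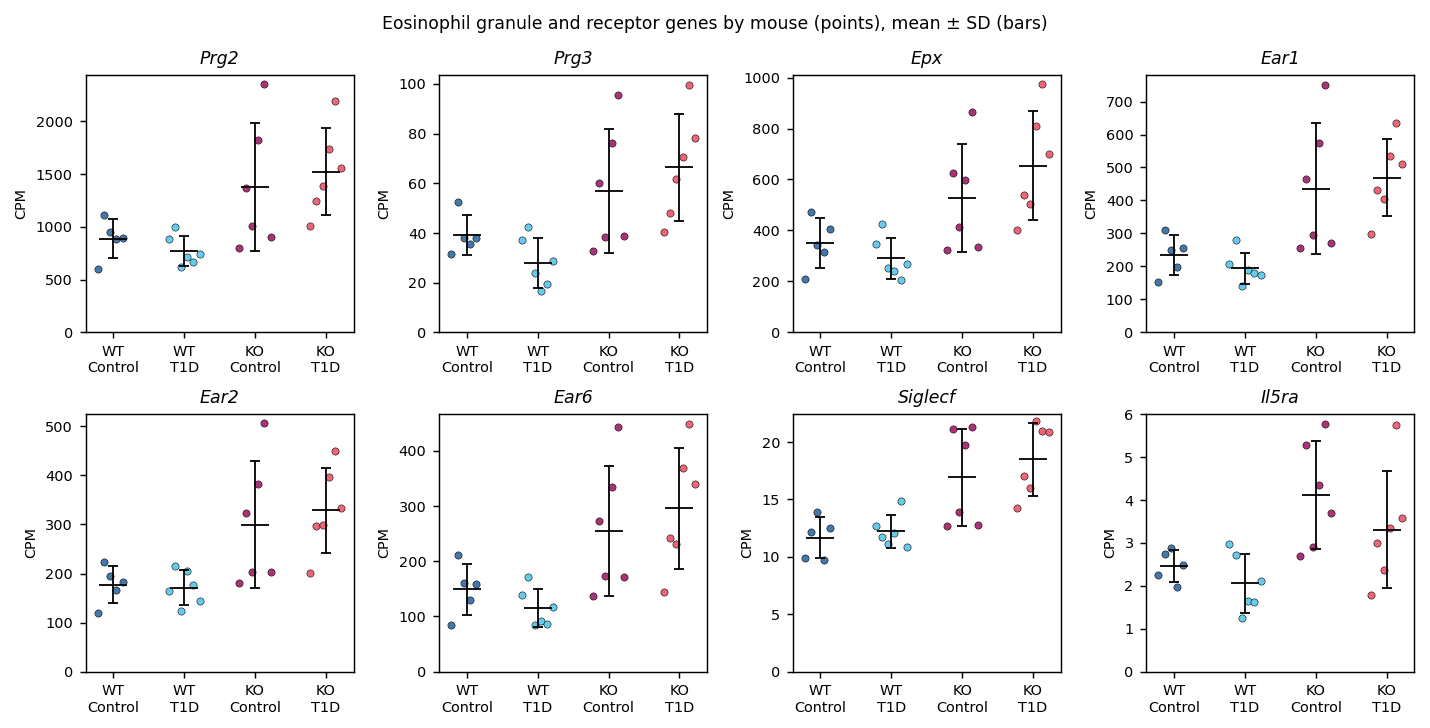
Each panel plots 1 gene, with CPM on the vertical axis and the 4 groups on the horizontal axis. Points are mice and bars are the mean ± SD. In KO Control, 3 of 6 mice lie above every WT Control mouse for 6 of the genes, and in KO T1D, Prg2 and Ear1 lie above every WT T1D mouse.

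The messages of the granule proteins had their lowest mean in WT T1D and their highest in KO T1D, although the T1D differences within a genotype were small beside the spread. Prg2 was measured at 600, 887, 892, 948 and 1110 CPM in the 5 WT Control mice. In WT T1D it ran from 617 over a median of 729 to 997 CPM, in KO Control from 798 over 1187 to 2355, and in KO T1D from 1009 over 1471 to 2192. The lowest KO T1D mouse was thus just above the highest WT T1D mouse, whereas KO Control and WT Control overlapped. Means were 887 ± 184 CPM (SD, n = 5) for Control and 771 ± 143 (n = 6) for T1D mice of the WT, and 1376 ± 607 (n = 6) for Control and 1522 ± 413 (n = 6) for T1D mice of the KO. The fitted log2 fold change of KO against WT was 0.63 ± 0.24 (SE) in Control and 0.98 ± 0.23 in T1D. T1D against Control gave -0.20 ± 0.24 in WT and 0.15 ± 0.23 in KO, both smaller than their errors. Without A3905 and A3906, T1D in WT gave -0.13 ± 0.27 and KO against WT in T1D gave 0.91 ± 0.26.

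Epx, on chromosome 11 (chr11:87863997-87875536, 9.39 Mb from Sarm1), was measured at 211, 316, 345, 406 and 473 CPM in WT Control. It ran from 205 over a median of 262 to 426 CPM in WT T1D, from 324 over 507 to 866 in KO Control and from 402 over 620 to 973 in KO T1D. Of the KO T1D mice, 5 of 6 were above every WT T1D mouse, and 3 of 6 KO Control mice were above every WT Control mouse. KO against WT gave 0.59 ± 0.26 in Control and 1.17 ± 0.25 in T1D, and T1D against Control -0.27 ± 0.26 in WT and 0.31 ± 0.25 in KO. Without A3905 and A3906, T1D in WT gave -0.11 ± 0.29 and KO against WT in T1D gave 1.01 ± 0.28. Myeloperoxidase (Mpo), the neutrophil-lineage relative of Epx that lies beside it on chromosome 11 (9.32 Mb from Sarm1), differed by 0.06 ± 0.14 between KO and WT in T1D (adjusted p = 0.854).

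Prg3 and Prg2 are neighbours on chromosome 2 (Prg2 at chr2:84980461-84983632, Prg3 at chr2:84988196-84996559). Prg3 was measured at 31.7 to 52.7 CPM in WT Control, 16.7 to 42.4 in WT T1D, 32.6 to 95.6 in KO Control and 40.3 to 99.6 in KO T1D. In WT T1D, 4 of 6 mice were below every WT Control mouse, the most for any of the 8 genes, with a T1D log2 fold change of -0.48 ± 0.28. Without A3905 and A3906 this was -0.25 ± 0.29. KO against WT was 0.54 ± 0.28 in Control and 1.24 ± 0.27 in T1D, the latter 1.01 ± 0.28 without those mice.

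Among the ribonucleases, Ear1 was measured at 152, 198, 251, 256 and 310 CPM in WT Control. In WT T1D it ran from 140 over a median of 185 to 280 CPM, in KO Control from 256 over 380 to 751 and in KO T1D from 297 over 471 to 634. As for Prg2, KO T1D did not overlap with WT T1D. KO against WT was 0.90 ± 0.26 in Control and 1.27 ± 0.25 in T1D. Ear2 and Ear6 gave 0.75 ± 0.24 and 0.77 ± 0.30 in Control and 0.94 ± 0.23 and 1.37 ± 0.29 in T1D. The T1D changes within a genotype were small beside these: -0.26 ± 0.25, -0.05 ± 0.24 and -0.38 ± 0.30 for Ear1, Ear2 and Ear6 in WT, and 0.11 ± 0.24, 0.13 ± 0.23 and 0.21 ± 0.29 in KO. Without A3905 and A3906, T1D in WT gave -0.23, -0.14 and -0.22 and KO against WT in T1D gave 1.23, 1.02 and 1.21 for the same genes.

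The other Ear ribonucleases in the table were scarce. Rnase2b ranged from 5 to 39 counts and gave 0.78 ± 0.37 for KO against WT in Control and 0.73 ± 0.36 in T1D, with adjusted p = 0.999 and 0.305. Rnase2a did not pass the filter. It had 27 counts in A3906 and 17 in A3905, and 0 to 9 in each of the other 21 mice. The pair of mice low in bone markers was thus the pair with the highest Rnase2a.

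The receptors were measured at lower levels. Siglecf, an inhibitory sialic acid-binding lectin of mouse eosinophils (chr7:43351341-43359475), was measured at 9.75 to 13.9 CPM in WT Control, 10.8 to 14.9 in WT T1D, 12.7 to 21.3 in KO Control and 14.2 to 21.8 in KO T1D. KO against WT was 0.54 ± 0.15 in Control and 0.60 ± 0.15 in T1D, the smallest T1D value of the 8 genes but with the smallest error, and 0.67 ± 0.17 in T1D without A3905 and A3906. T1D against Control was 0.07 ± 0.16 in WT, which turned to -0.01 without A3905 and A3906 or with library totals and to -0.19 on log2(TPM + 1), and 0.13 ± 0.14 in KO. Il5ra (chr6:106710375-106749037) ran from 1.97 to 2.88 CPM in WT Control, 1.26 to 2.98 in WT T1D, 2.69 to 5.78 in KO Control and 1.78 to 5.74 in KO T1D. KO against WT was 0.74 ± 0.27 in Control, above the Control values of Prg2, Prg3, Epx and Siglecf, and 0.68 ± 0.26 in T1D, or 0.54 ± 0.30 without A3905 and A3906. It was the member with a negative T1D value in KO, -0.31 ± 0.26, beside -0.26 ± 0.28 in WT (-0.12 ± 0.31 without those mice). Of its KO Control mice, 5 of 6 were above every WT Control mouse.

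**Figure D2:**
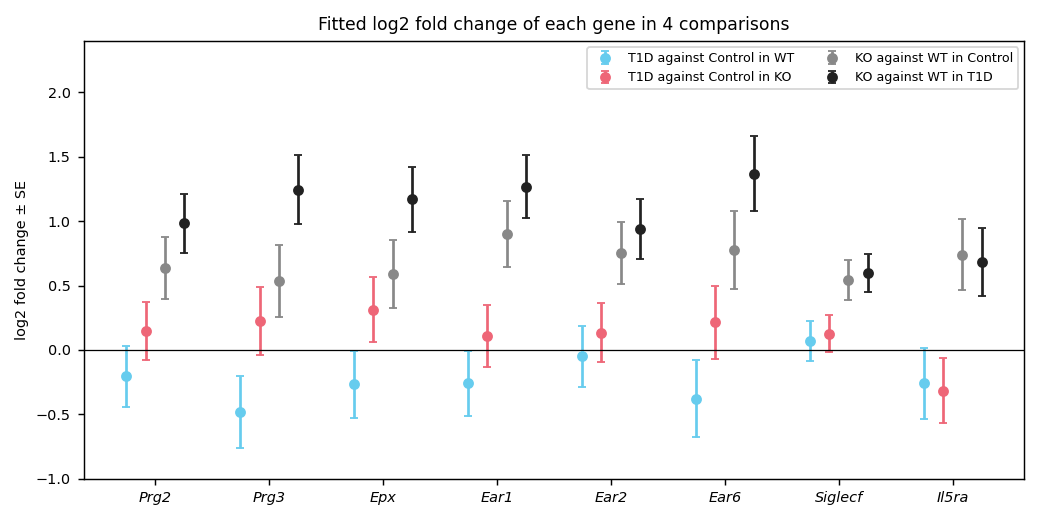
The vertical axis is the fitted log2 fold change and the horizontal axis the gene, with points for the estimate and bars for its SE in 4 comparisons. KO against WT values (grey in Control, black in T1D) lie above 0 for all 8 genes, from 0.54 to 0.90 and from 0.60 to 1.37, while T1D against Control values lie between -0.48 and 0.31.

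Over the 8 genes, the median log2 fold change of KO against WT was 0.69 in Control and 1.08 in T1D, beside a median of 0.00 and 0.01 over all genes tested. T1D against Control had a median of -0.26 in WT and 0.14 in KO, beside -0.01 and 0.00 over all genes. Both the WT T1D comparison and the T1D comparison of genotypes use the same WT T1D mice, so their values are not independent. The difference between KO and WT in the T1D change had a median of 0.36 over the members, with 7 of 8 values above 0, from -0.06 ± 0.38 for Il5ra to 0.71 ± 0.38 for Prg3. Adjusted p was under 0.05 in edgeR for 1 of the 8 genes, Ear1, in KO against WT in T1D, where 0.0905% of all genes were called. It was so for 0 of 8 in the other comparisons, in which 0.0278% (KO against WT in Control), 2.33% (T1D in WT), 0% (T1D in KO) and 0% (difference in the T1D change) of all genes were called. At an unadjusted p under 0.05 the counts were 8 of 8 for KO against WT in T1D, beside 17.1% of all genes, and 7 of 8 in Control, beside 4.8%. They were 0 of 8 for T1D in WT, T1D in KO and the difference in the T1D change, beside 22.2%, 3.15% and 10.2% of all genes. DESeq2 called 7 of the 8 in KO against WT in T1D, beside 1.66% of all genes. It called 0 of 8 for T1D in WT (6.98% of all genes), KO against WT in Control (0.0278%), T1D in KO (0%) and the difference (0%). Every KO T1D mouse was above every WT T1D mouse for 2 of the 8 genes, beside 0.453% of all genes. Nothing is read from these counts, since this contrast chose the genes.

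The spread within KO was the widest. The coefficient of variation of the members had a median of 43.5% in KO Control and 29.7% in KO T1D, against 21.1% in WT Control and 26.0% in WT T1D. Over all genes tested the median was 12.9%, 13.2%, 14.1% and 16.3% in the same order. In KO Control, A3673 was the highest mouse for 8 of 8 genes and A3679 the lowest for 8 of 8. In KO T1D, A3681 was the lowest for 8 of 8 and A3675 the highest for 7 of 8. The 8 genes thus ranked individual animals in nearly the same way. In KO T1D this order followed the IDs: for every member, A3674 to A3676 lay above A3681 to A3683. Epx ran from 701 to 973 CPM in the former and from 402 to 538 in the latter. Mpo, no member, went the other way, at 2542 to 2824 and 3992 to 4614 CPM. KO Control had no such split, with Epx at 626 CPM in A3680 and 415 in A3670. What these runs of IDs stand for is not given in the labels and was not tested.

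Over the 23 mice, log2 CPM of the 28 pairs of members had Pearson's r from 0.74 (Siglecf and Il5ra) to 0.98 (Epx and Ear6), with a median of 0.92. After each group's mean was taken out, r ran from 0.63 (Prg3 and Siglecf) to 0.97 (Epx and Ear6), with a median of 0.86. These are descriptions over mice that share libraries and normalization. Prg2 and Epx, on different chromosomes, had r = 0.97, as high as the 0.98 of the paralogs Ear1 and Ear2.

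Ratios within a library showed where members parted. Ear2 over Ear1 in TPM was 0.71 to 0.84 in WT Control, 0.77 to 1.07 in WT T1D, 0.66 to 0.74 in KO Control and 0.65 to 0.74 in KO T1D. The lowest WT T1D value, 0.77, was above the highest KO T1D value, 0.74, while the Control groups overlapped. Nothing is read from this, since both genes were chosen on this contrast and other gene ratios were not counted. Reads of Ear10 assigned to Ear1 or Ear2 may also enter this ratio. The highest values, 1.07 and 0.97, were in A3905 and A3906, and without them the ratio stayed at or below 0.87. Prg3 over Prg2 was also extreme in this pair, 0.0193 and 0.0236, against 0.0310 to 0.0429 in the other 21 mice. Siglecf over Prg2 was highest in A3906, at 0.00703, so this mouse combined the lowest Epx level of WT T1D (205 CPM) with its highest Siglecf level (14.9 CPM).

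**Figure D3:**
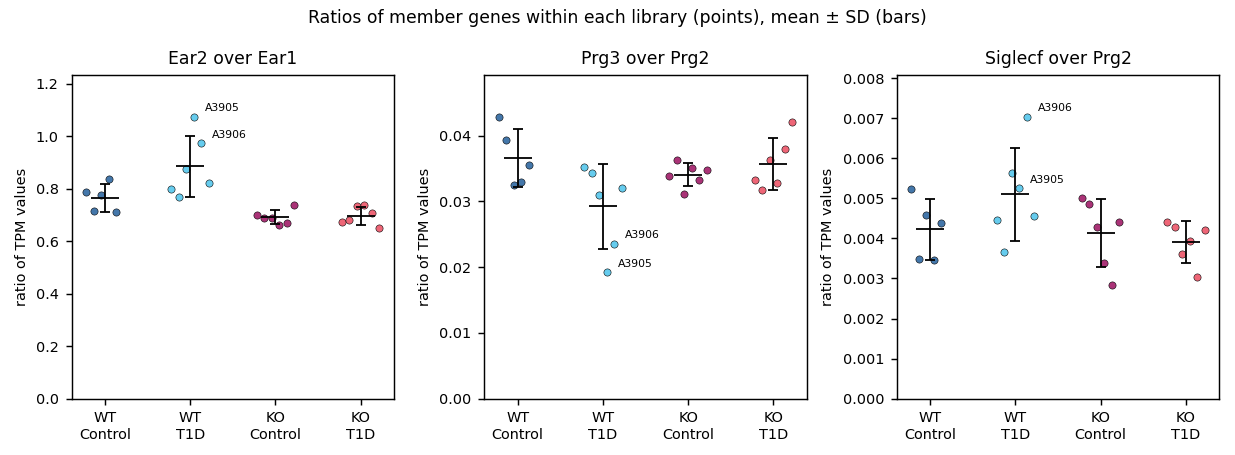
The vertical axis of each panel is the ratio of TPM values of 2 genes within a library, and the horizontal axis the group. Points are mice and bars the mean ± SD. A3905 and A3906 lie at the high end of Ear2 over Ear1 (1.07 and 0.97) and at the low end of Prg3 over Prg2 (0.0193 and 0.0236).

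Other genes tied to eosinophils gave few calls. Of 5 eosinophil enzymes, 1 passed the test: Alox15, the 12/15-lipoxygenase that oxidises arachidonic acid, rose in KO against WT in T1D by 1.24 ± 0.24 (log2, SE; adjusted p = 0.0489, edgeR). It ran from 41.6 over 50.4 to 66.6 CPM in WT T1D and from 77.2 over 117 to 194 CPM in KO T1D, higher in 6 of 6 mice. In KO Control it ran from 69.3 to 185 CPM against 46.6 to 90.6 in WT Control, a log2 fold change of 0.74 ± 0.25 (adjusted p = 0.999). The call in T1D is marginal, and 0.0905% of all genes were called there. Over all alternatives the adjusted p of Alox15 ranged from 0.00206 (DESeq2) to 0.222 (without A3905 and A3906). The call was kept in 8 of 23 refits that left out a mouse. The gene list was chosen with earlier results of these data known, and Alox15 varied with the members (r = 0.96). Its test is thus not independent of how the members were chosen. The other enzymes did not pass, among them Ltc4s, the leukotriene C4 synthase, at -0.47 ± 0.16 (adjusted p = 0.182).

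None of 12 receptors and surface proteins of eosinophils, many of them shared with other myeloid cells, passed the test in any of the 5 comparisons in edgeR. Their median for KO against WT in T1D was 0.09, with 9 above and 3 below 0. Ccr3, the eotaxin receptor, was listed with the members as an eosinophil marker. It gave 0.08 ± 0.15 in T1D (adjusted p = 0.826) and 0.07 in Control, at 13.6 to 26.5 CPM. Il1rl1, the interleukin-33 receptor, gave -0.59 ± 0.17 in T1D (adjusted p = 0.141). The most abundant, Itgam and Csf2ra, gave -0.08 ± 0.11 and 0.07 ± 0.11, with adjusted p = 0.750 and 0.786. The 95% interval of the Ccr3 difference in T1D ran from -0.22 to 0.37, which allows a small change in either direction. The members' values in T1D, from 0.60 to 1.37, are no yardstick for it, since this contrast chose them.

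Of 12 transcription factors of the eosinophil lineage, none passed in any comparison, with a median of -0.03 for KO against WT in T1D. Gata1, which directs eosinophil and erythroid fate, gave -0.22 ± 0.14 (adjusted p = 0.425), Cebpe, needed for granule maturation, 0.00 ± 0.12 (adjusted p = 0.999) and Irf8 0.34 ± 0.13 (adjusted p = 0.206). The most abundant, Spi1 and Zfpm1, gave -0.14 ± 0.13 and -0.11 ± 0.14 (adjusted p = 0.609 and 0.717). In bulk RNA these factors, like the enzymes above, can come from other cells, so their values do not single out eosinophils. Several type 2 cytokines were near the floor: Il5 had 0 to 5 counts in a library, and Il4, Il13 and Csf2 no more than 8. Of the 5 ligands tested none passed, and the most abundant, Ccl5 and Il33, gave 0.35 ± 0.19 and -0.81 ± 0.69 (adjusted p = 0.345 and 0.559). Il33 was itself near the floor, with a mean of 0.79 CPM and a range of 0 to 5.63 CPM.

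The genes most like the members were found by Pearson's r of log2 CPM with the members' mean z score over 23 mice, among 13299 genes with a mean of at least 1 CPM. Alox15 led with r = 0.96 (0.93 after group means were taken out). Spns3, a member of the spinster transporter family, and Alox12e, another lipoxygenase, followed with 0.81 each (0.52 and 0.75 within groups). Zfp975 had 0.76, Scfd1 0.76, Grb7 0.75, Vtn 0.75, Rnase12 0.74, Bfsp2 0.74 and Stx3 0.73. Against Epx alone, the order was Alox15 (0.93), Spns3 (0.82), Bfsp2, Lef1 and Grb7 (0.79 each), Alox12e (0.79), Pwwp2b (0.78), Cops4 (0.78), Dntt (0.77) and Prep (0.76). Spns3 was higher in KO T1D than in WT T1D by 0.72 (adjusted p = 0.0489), and Alox12e by 0.95 (adjusted p = 0.191). Over the alternatives the adjusted p of Spns3 ran from 0.00206 to 0.222, and the call was kept in 10 of 31. These genes were picked for their likeness to the members, so their tests are not independent of how the members were chosen.

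Of the 10 genes most like the members, 5 lie on chromosome 11, which holds Sarm1 and Epx, whereas 8.35% of the 13264 genes with a position do. They are Alox15 (chr11:70344147-70390538), Alox12e, Spns3, Grb7 and Vtn, at 8.12, 8.16, 5.96, 19.97 and 0.0167 Mb from Sarm1. Nothing is read from this count. The ranking used r over all mice with genes chosen on a genotype difference, so it favours any gene that differs by genotype, those near Sarm1 included. Vtn, the nearest, was higher in KO by 3.35 in Control and by 3.4 in T1D (adjusted p = 1.79e-06 and 3.69e-07), and its r with the members fell to 0.21 within groups. Of the genes called between genotypes, 4 of 4 in Control and 6 of 13 in T1D lie on chromosome 11. The other 7 members lie on chromosomes 2, 6, 7 and 14. The knocked-out gene and sequence inherited with it on chromosome 11 cannot be told apart in these mice.

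**Figure D4:**
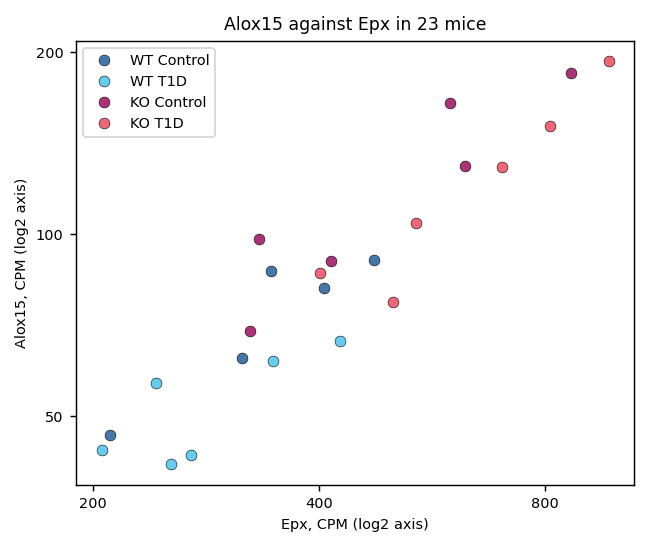
Alox15 on the vertical axis is plotted against Epx on the horizontal axis, both in CPM on log2 axes, with a point for each of 23 mice in the colour of its group. The 2 genes rise together within as well as between groups (r = 0.93 over all mice and 0.91 after group means were taken out).

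Markers of other cells were set beside the members. Of 10 basophil and mast cell markers none was called in any comparison, and their summed level was 190 to 308 CPM in WT T1D and 218 to 358 in KO T1D. None of 7 promyelocyte primary granule markers was called, with sums of 5365 to 6558 CPM in WT T1D and 4399 to 7559 in KO T1D. Of 12 neutrophil late granule and cytosolic markers none was called. All 12 had negative values for KO against WT in T1D (median -0.24), the opposite sign to the members, with sums of 27544 to 48564 CPM in WT T1D (27544 to 29039 without A3905 and A3906) and 24239 to 38802 in KO T1D. None of 12 monocyte and macrophage markers or 8 B cell markers was called.

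Most erythroid markers and 1 bone marker were called for T1D in WT. Of 11 erythroid markers tested, 11 had values above 0 (median 0.61) and 7 were called. Among them Rhag rose by 0.94 ± 0.20 and Slc4a1 by 0.64 ± 0.14 (adjusted p = 0.0367 for both). Of 13 bone cell markers, 11 had values below 0 (median -0.72) and 1 was called: Ibsp, bone sialoprotein, fell by 0.78 ± 0.15 (adjusted p = 0.0236). For KO against WT in T1D none of either list was called, but the medians were -0.34 for erythroid and 0.65 for bone markers. Without A3905 and A3906, 0 genes were called for T1D in WT in edgeR (1575 at an unadjusted p under 0.05), while the members' median for KO against WT in T1D was 1.01, beside 1.08 with them. Cell mixture cannot be told apart from expression per cell, and the part of these marker differences in the members' values was not tested.

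**Figure D5:**
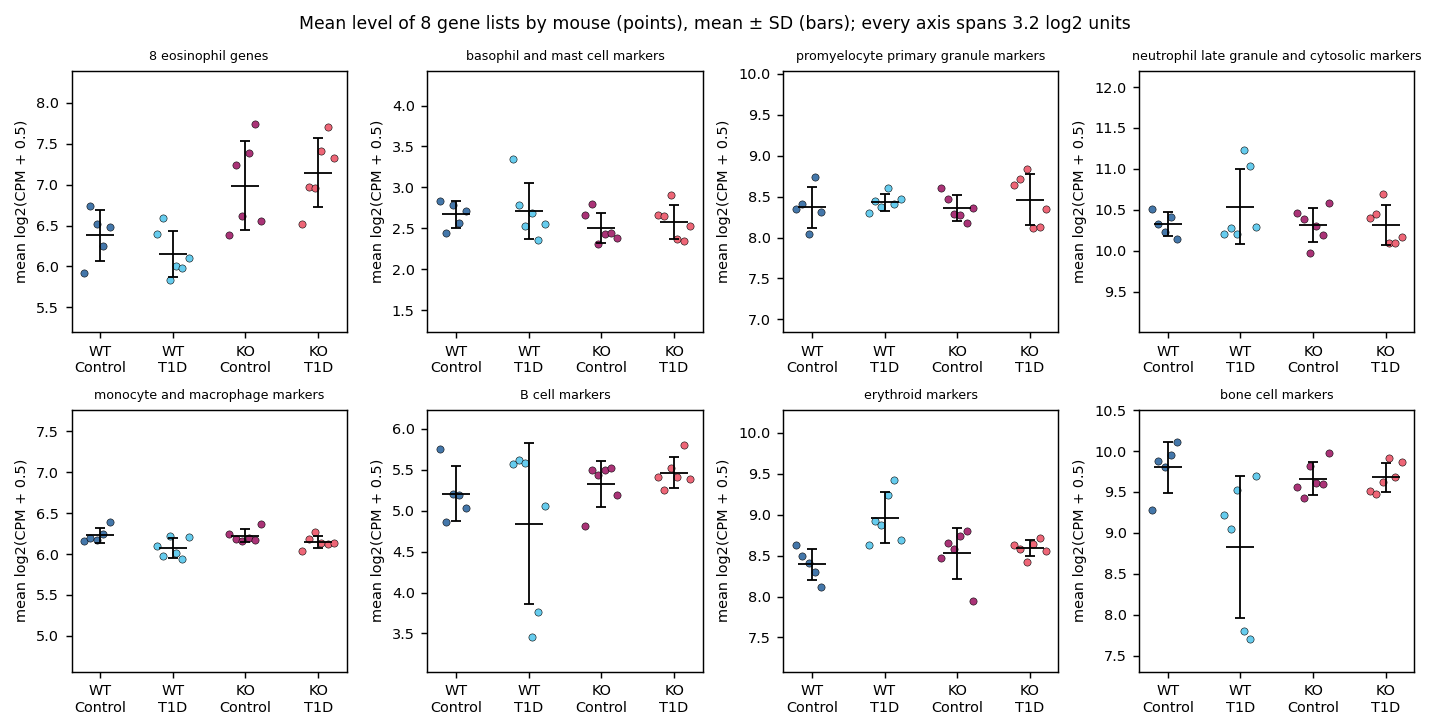
Each panel plots the mean log2(CPM + 0.5) of the tested genes of a list on the vertical axis, over 3.2 log2 units, by group on the horizontal axis. Points are mice and bars the mean ± SD. The 8 eosinophil genes spread widely in both KO groups, whereas the lowest bone marker levels, 7.80 and 7.70, are those of A3905 and A3906.

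Mouse ID numbers limit the comparison of genotypes. All 11 mice with IDs starting A36 were KO, and all 6 starting A39 and all 4 starting A17 were WT. The A37 series alone held both, with 1 WT Control (A3767) and 1 KO Control (A3766). In this pair 6 of the 8 genes were higher in the WT mouse, Prg2 at 1110 against 908 CPM and Epx at 473 against 333 CPM, while Siglecf (12.2 against 12.8) and Il5ra (2.74 against 3.69) were not. What the ID series stand for is not given in the labels, and genotype and ID series cannot be told apart in the remaining mice. Without the A17 mice the members' median was 0.58 in Control and 1.23 in T1D for KO against WT. That setting left only 3 WT T1D mice, A3905, A3906 and A3909, and so leans on the pair low in bone markers.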

How the data were processed

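The authors deposited RSEM expected counts for each gene and a TPM table, made from paired-end reads that SOAPnuke had filtered and Bowtie2 had aligned (GRCm38.p6), with HISAT also in the submitters' notes (versions not given in the sources used here). Expected counts were rounded. Members were found by symbol in the TPM table and joined to counts by gene ID. Members and gene lists were chosen with earlier results of these data known. The 14364 genes that reached 10 counts in 5 or more mice were fitted in edgeR 4.0.16 (quasi-likelihood, TMM, all 4 groups in 1 model, R 4.3.3), with Benjamini-Hochberg adjustment over all of them. On data simulated for T1D in WT, with a fixed log2 fold change of 1 and no outlying mice, 76% of 200 changed genes were recovered. The real WT T1D group held A3905 and A3906, so this share may not hold there. CPM use TMM library sizes. A p sets a difference between groups against the spread between mice. The 55 within-group library pairs all differed beyond counting noise (chi-square per gene at least 11.3).

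Named were all members, the other measured Ear genes, up to 3 called genes per list and comparison (by size, otherwise the 2 most abundant), and the 10 genes most like the members or Epx. Ltc4s, Ccr3, Il1rl1, Gata1, Cebpe and Irf8 were added for their roles after their values were seen. A gene that the rule names is not reported here. Alternatives were DESeq2 1.42.0, its size factors, library totals, no filter, limma 3.58.1 on log2(TPM + 1) and log2(TPM + 0.1), no A17 mice, and each mouse left out. Leaving out A3905 and A3906 was chosen after seeing the data. Positions and promoters are from RefSeq GRCm38.p6 and transcripts from GENCODE vM21. The promoter of Prg2 and the proteins were not used here.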

Additional observations from a re-analysis of the deposited data

How the results depend on the processing

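No paired analysis was possible because each mouse ID belongs to a single group. All 8 members stayed above 0 for KO against WT, in Control and in T1D, under every alternative, with medians of 0.50 to 0.79 and 0.92 to 1.24. For T1D in WT the median ran from -0.53 to -0.13, in KO from 0.03 to 0.36, and for the difference in the T1D change from 0.23 to 0.66. Among single members, Siglecf and Ear2 (T1D in WT), Ear1 (T1D in KO), and Siglecf and Il5ra (difference) changed sign under at least 1 alternative. On log2(TPM + 1) the median of all genes for T1D in WT was itself -0.24, and the members lay -0.27 from it.

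Counts of calls depended strongly on the setting, and the cause was not tested. Members called in KO against WT in T1D are given beside the genes called of 14364. They were 1 in edgeR (13 genes), 7 in DESeq2 (239) and 7 in limma with pseudocounts of 1 (744) and 0.1 (84). They were 5 without A17 mice (1538), and 0 with DESeq2 size factors in edgeR (5) or without A3905 and A3906 (4). Without A17 mice, WT T1D kept only 3 mice, among them A3905 and A3906, which bears on every count given for that setting. Without a filter they were 0 (3 of 18002), and with a mouse left out 0 to 4 (3 to 95). For T1D in WT, limma called 1 member on either TPM scale, beside 5164 and 5019 of 14364 genes. With any mouse left out, edgeR called 0 members, beside 0 to 1264 genes. Nothing is read from these member counts. Genes called in KO against WT in T1D were 13 in edgeR (9 higher, 4 lower), and 239 (87 higher, 152 lower) in DESeq2, 5 with its size factors (3 higher, 2 lower), 10 with library totals (9 higher, 1 lower), 3 without a filter, 744 (722 higher, 22 lower) and 84 (79 higher, 5 lower) in limma with pseudocounts of 1 and 0.1, 1538 without A17 mice, 4 without A3905 and A3906, and 3 to 95 with a mouse left out. For T1D in WT they were 334 (215 higher, 119 lower), 1002 in DESeq2, 266 with library totals (76 higher, 190 lower), 88 without a filter, 5164 (83 higher, 5081 lower) and 5019 in limma, 2205 without A17 mice, 0 without A3905 and A3906, and 0 to 1264 with a mouse left out, with 0 when A3767 or A3907 was the mouse. T1D in KO gave 0 to 1 and KO against WT in Control 3 to 4 with a mouse left out. The difference in the T1D change gave 2 in limma on either TPM scale and 0 with any mouse left out. The call of Alox15 was kept without A1758, A1764, A1787, A3673, A3679, A3681, A3683 or A3909 and lost without any other mouse (adjusted p 0.0351 to 0.132). Il5ra, at 22 to 109 counts, is the member that depth limits most.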
